A study of Mus musculus with 160 samples.

Results

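The 10 genes described here are the hormones and marker genes of enteroendocrine cells that the distal colon makes. They were chosen by name, as genes known to mark these cells, and all 10 were found by their Ensembl identifiers among the 39179 genes counted in each of 160 libraries. *Chga* and *Chgb* encode granule proteins, *Neurod1* a transcription factor, *Tph1* the rate-limiting enzyme of serotonin synthesis, and *Pyy*, *Gcg*, *Insl5*, *Sct*, *Cck* and *Sst* encode peptide hormones.

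Enteroendocrine cells are scattered, hormone-secreting cells of the gut epithelium, which arise from crypt progenitors under the transient action of *Neurog3* and then of *Neurod1*. They sense nutrients, bacterial products and stretch, and release peptides or serotonin toward nerves, blood vessels and neighboring epithelial cells. In the distal colon the main types are enterochromaffin cells, which make serotonin, L cells, which make peptide YY, the glucagon-like peptides and insulin-like peptide 5, and D cells, which make somatostatin.

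RNA of the distal colon was sequenced from adult mice of 4 existing knockout models and their wild-type littermates, from heterozygote crosses, in a study of colitis caused by dextran sulfate sodium (DSS), a sulfated polysaccharide that mice drink and that damages the lining of the colon. Knockouts numbered 16 in the *Nckap1l* line (labelled HEM1), 18 in the *Dock2*, 20 in the *Gpsm3* and 26 in the *Dok3* line, and wild types 15, 24, 20 and 21, and the targeted genes are used mainly by hematopoietic cells. The *Nckap1l*, *Dock2* and *Gpsm3* lines were C57BL6/J and the *Dok3* line was labelled strain 129. The methods also call the *Dok3* mice 129sw, although they describe re-derivation of every line through C57BL6/J females. DSS was given for 5 days and followed by water, at 3% in the *Dock2* and *Gpsm3* lines and 3.5% in the *Dok3* line, and colon was taken on day 10, or on day 12 in the *Nckap1l* line, for which the labels give no dose. The methods describe a somewhat lower dose for the *Nckap1l* line and, for the *Dok3* line, a first round at the dose of the *Dock2* and *Gpsm3* lines, which the labels do not mark. The labels do not say which mice received DSS, so treated and untreated mice could not be separated within a group. The *Gpsm3* and *Dok3* libraries were all labelled male, whereas females made up 4 of the *Nckap1l* knockouts, 8 of their wild types, 8 of the *Dock2* knockouts and 12 of their wild types. Mice are the replicates throughout.

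Total counts ranged from 4344988 to 19993833 per library, so that 3 counts corresponded to between 0.15 and 0.69 CPM (counts scaled to the library's total), and 8 libraries held fewer than 10000000 counts. A set of 32 libraries also held RNA of stratified squamous epithelium: their summed level of 12 skin genes, such as *Krt5* and *Krt1*, ran from 995 to 16400 CPM, against 8.51 to 86.0 CPM in the other 128. These 32 were spread over all 8 groups, with 15 in the *Nckap1l*, 5 in the *Dock2*, 3 in the *Gpsm3* and 9 in the *Dok3* line, and each result is given with and without them where they move it. A single *Dok3* knockout library held 0.129 CPM of *Hoxd13*, a gene of the hindmost gut, against 37.2 to 229 CPM in the other 159. In 5 *Dok3* libraries, 3 knockout and 2 wild type, *Xist* and the Y-linked genes went against the male label. The targeted gene was lower in knockouts past the threshold only for *Gpsm3* (-2.06 on the log2 scale, adjusted p = 0.0001), and the knockout and wild-type ranges of the targeted gene overlapped in all 4 lines. For *Nckap1l*, *Dock2* and *Dok3* the differences were -1.09, -0.62 and -0.48 (edgeR, adjusted p = 1, 0.21 and 1).

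The upstream sequences of 3 peptide genes are shown first, because *Gcg*, *Sct* and *Cck* are the 3 hormones whose level rose with inflammation. Each is the 250 bases before the RefSeq start on GRCm38.p6, the genome of the files, written along the gene's strand. Capitals mark CAGATG, searched on both strands as CAGATG or CATCTG, a form of the E-box that *Neurod1* is known to bind.

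Gcg: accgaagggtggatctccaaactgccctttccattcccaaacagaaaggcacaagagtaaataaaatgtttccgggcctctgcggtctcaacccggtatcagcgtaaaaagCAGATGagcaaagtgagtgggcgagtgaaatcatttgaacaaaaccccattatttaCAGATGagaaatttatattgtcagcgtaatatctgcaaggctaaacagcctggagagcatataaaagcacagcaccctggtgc
Sct: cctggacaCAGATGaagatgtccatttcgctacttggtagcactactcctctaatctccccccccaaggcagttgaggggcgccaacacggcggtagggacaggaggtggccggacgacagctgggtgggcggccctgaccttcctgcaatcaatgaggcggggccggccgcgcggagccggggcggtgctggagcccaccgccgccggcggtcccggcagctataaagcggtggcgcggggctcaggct
Cck: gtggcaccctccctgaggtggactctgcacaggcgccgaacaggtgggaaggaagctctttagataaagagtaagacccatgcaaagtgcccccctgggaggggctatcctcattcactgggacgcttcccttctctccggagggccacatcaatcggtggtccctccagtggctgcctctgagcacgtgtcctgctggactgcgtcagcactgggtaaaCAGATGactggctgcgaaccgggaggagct

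The *Gcg* sequence lies at chr2:62483654-62483903 (minus strand) and holds the motif at bases -139 and -83 before the start. The *Sct* sequence lies at chr7:141279134-141279383 (minus strand) and holds it at -242, and the *Cck* sequence lies at chr9:121495695-121495944 (minus strand) and holds it at -30. All 10 genes matched the RefSeq promoter table, with 13 windows in all because *Insl5*, *Tph1* and *Pyy* have a second start. The motif was in a window of 4 of the 10 genes, the fourth being *Insl5* at -178 before its second start, and in 14.4% of the 32851 windows of all genes (16.3% of 27025 genes). A match describes letters and is not a binding site, and the windows of *Chga*, *Chgb*, *Neurod1*, *Tph1*, *Pyy* and *Sst* did not hold these letters.

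The 10 transcripts together made up a median of 277 CPM (0.0277% of the counts), with a lowest library at 43.0 and a highest at 489 CPM. All levels are CPM after normalization by the trimmed mean of M values (TMM). In bulk tissue, fewer enteroendocrine cells and less RNA per cell cannot be told apart.

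Among the granule proteins, *Chga* (ENSMUSG00000021194, chr12:102554969-102565028, plus strand), which helps form dense-core granules, had a lowest level of 5.91, a median of 38.7 and a highest of 61.8 CPM over the 160 libraries. *Chgb* (chr2:132781278-132795079, plus strand), its close relative, had 8.45, 89.6 and 173 CPM. The transcription factor *Neurod1* (chr2:79452521-79456751, minus strand), which drives the last steps of enteroendocrine differentiation, was far lower, at 0.318, 2.55 and 6.67 CPM. *Tph1* (chr7:46644641-46672537, minus strand) marks enterochromaffin cells and had 1.83, 11.3 and 43.0 CPM. All 4 were above 3 counts in every library.

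Of the L-cell peptides, *Pyy* (chr11:102106676-102107832, minus strand), which slows gut transit and reduces appetite, ranged from 8.14 through a median of 63.1 to 154 CPM. *Gcg* (chr2:62474530-62483650, minus strand), whose product is cut into the glucagon-like peptides, ranged from 3.27 through 19.5 to 65.1 CPM. *Insl5* (chr4:103017872-103026842, minus strand), a relaxin-family peptide of colonic L cells, ranged from 3.14 through 39.3 to 102 CPM, the widest span of the 9 genes detected in every library, at 32.3-fold. These 3 peptides share a cell type but not their extremes: the highest *Pyy*, *Gcg* and *Insl5* levels were in 3 different *Dok3* knockout libraries. The *Gcg* maximum was the library with almost no *Hoxd13*, which also held the highest *Sct* and only 10.9 CPM of *Insl5* and 26.6 CPM of *Pyy*.

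The remaining hormones were low. *Sct* (chr7:141278330-141279133, minus strand), which encodes secretin and is made more in the small intestine, had 0.241, 1.28 and 4.64 CPM. *Cck* (chr9:121489824-121495694, minus strand), a hormone of small-intestinal I cells, had a median of 0.344 and a highest level of 1.94 CPM, was at 0 in 8 libraries and at 3 counts or fewer in 54. The highest *Cck* and the highest *Tph1* were in the same *Dock2* wild-type library, whose inflammation mean of 6.05 was the largest of that line. *Sst* (chr16:23889573-23890958, minus strand), the D-cell hormone that is also made by enteric neurons, had 0.526, 2.99 and 8.23 CPM. Per kilobase of exon, the median levels ran from *Pyy* (100.0 CPM per kb) through *Insl5* (54.3), *Chgb* (32.7), *Chga* (14.1), *Gcg* (13.1), *Sst* (4.15), *Sct* (1.99), *Tph1* (1.84) and *Neurod1* (0.935) to *Cck* (0.264). In that order *Pyy* exceeded *Insl5* and *Chgb* exceeded *Chga* in 160 of 160 libraries. *Chga* and *Gcg* could not be ordered, since *Chga* was the higher per kilobase in 79 of 160, and *Sct* and *Tph1* differed by a median log2 ratio of 0.28 with an SD of 0.66 across libraries.

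**Figure D1:**
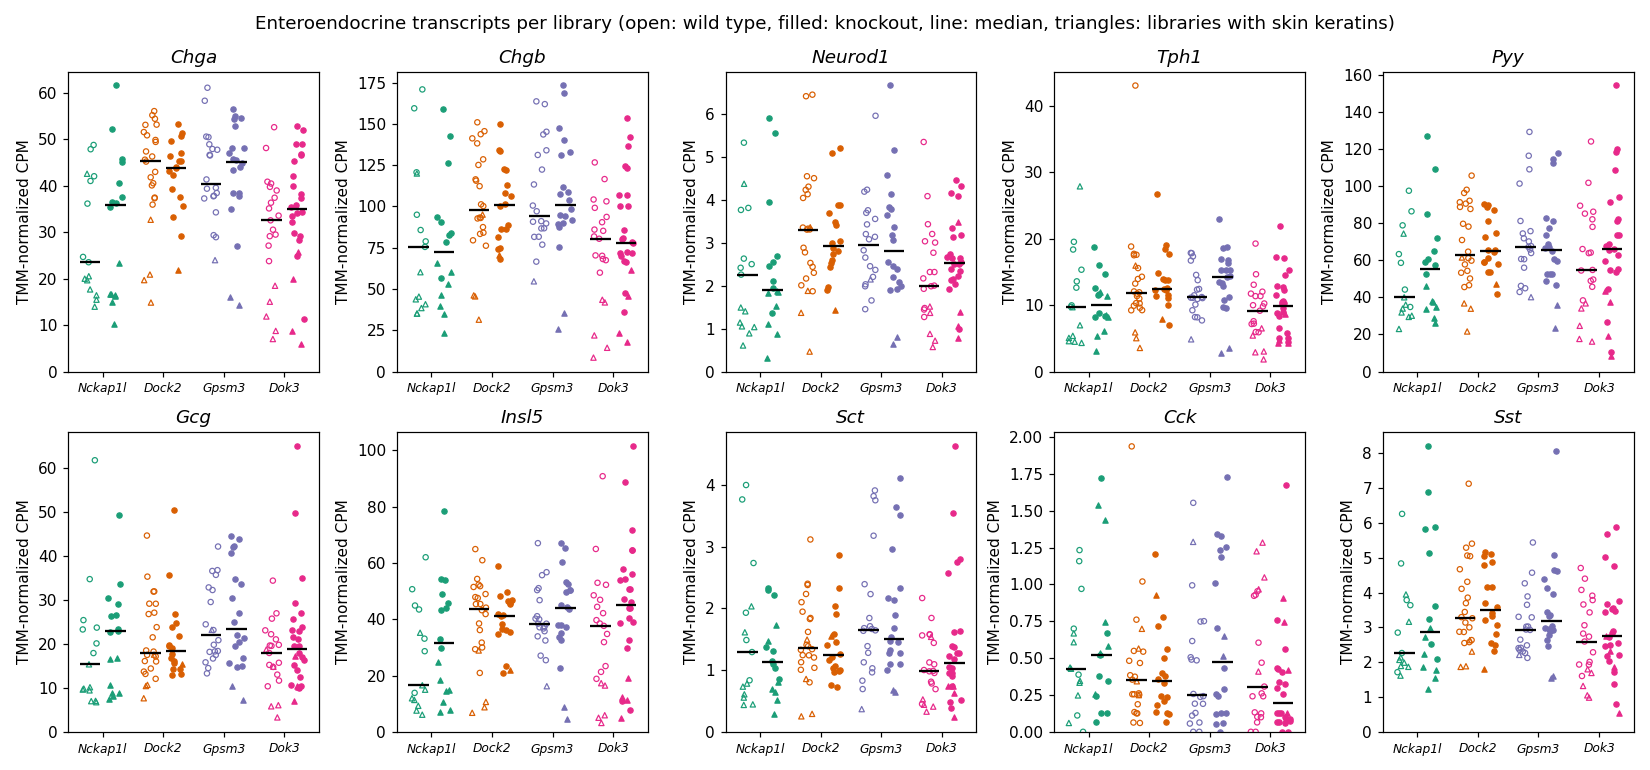
TMM-normalized CPM of each gene (y axis, from 0) by line (x axis), with 1 point per library, open for wild type and filled for knockout, black lines at group medians and triangles for the 32 libraries with skin keratins. Knockout and wild-type points overlapped in every panel, and the median of the triangles lay below that of the other points in every panel except *Cck*, although single triangles reached 27.9 CPM for *Tph1* and 120.0 CPM for *Chgb*.

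The 32 libraries with skin keratins had lower median levels of 9 of the 10 genes. Their median was 0.256 of the median of the other 128 for *Insl5* (11.3 against 44.1 CPM), 0.396 for *Chga* (16.7 against 42.1 CPM), and between 0.430 and 0.565 for *Chgb*, *Neurod1*, *Tph1*, *Pyy*, *Gcg*, *Sct* and *Sst*. *Cck* went the other way, with medians of 0.574 and 0.259 CPM. *Epcam*, a marker of the whole epithelium, had medians of 874 and 1250 CPM in the same libraries, and their median inflammation mean, defined with the slopes, was 0.76 against -0.18. The lowest library of *Chgb*, *Tph1*, *Gcg* and *Insl5* was the same *Dok3* wild-type library, with 1520 CPM of *Krt5*, and the lowest of *Chga*, *Pyy* and *Sct* the same *Dok3* knockout library, with 1380 CPM of *Krt5*.

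Knockout and wild-type mice were compared in each line to ask whether loss of these hematopoietic genes changed the colon. The libraries showed no member past the threshold in any line. *Cck* was removed by the filter on low counts in every line, and of the 9 genes tested, 0 passed an adjusted p of 0.05 in edgeR, DESeq2 or limma-voom, and 0 had an unadjusted p under 0.05 in edgeR. Over all genes, edgeR called 0% of 17947 genes in the *Nckap1l*, 0.034% of 17648 in the *Dock2*, 0.00569% of 17560 in the *Gpsm3* and 0% of 17612 in the *Dok3* line, where 807, 900, 854 and 386 genes had an unadjusted p under 0.05. DESeq2 called 21, 76, 4 and 3 genes and limma-voom 0, 0, 1 and 0.

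*Gcg* had a lowest, median and highest level of 7.51, 22.9 and 49.3 CPM in *Nckap1l* knockouts and 6.73, 15.4 and 61.8 CPM in their wild types. In the *Dock2* line the values were 12.9, 18.4 and 50.4 CPM in knockouts and 7.64, 17.9 and 44.6 CPM in wild types. In the *Gpsm3* line they were 7.20, 23.5 and 44.6 CPM against 13.3, 22 and 42.2 CPM. In the *Dok3* line they were 7.06, 18.7 and 65.1 CPM against 3.27, 17.9 and 34.4 CPM, so that the ranges overlapped in every line, and the highest *Dok3* knockouts lay above every *Dok3* wild type. *Insl5* in the *Nckap1l* line had medians further apart, with 7.04, 31.5 and 78.5 CPM in knockouts and 6.08, 16.5 and 62.0 CPM in wild types. Its fitted difference there was 0.20 on the log2 scale, with an SE of 0.37 and a 95% interval from -0.53 to 0.92 (p = 0.601 in edgeR). In the *Dok3* line *Insl5* had 4.83, 45.1 and 102 CPM in knockouts and 3.14, 37.7 and 90.8 CPM in wild types.

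*Sct* gave the largest fitted differences, of opposite sign in the *Nckap1l* and *Dok3* lines. In the *Nckap1l* line it had a lowest, median and highest level of 0.296, 1.13 and 2.33 CPM in knockouts and 0.436, 1.29 and 4.0 CPM in wild types, a log2 difference of -0.51 (SE 0.33, p = 0.131 in edgeR). In the *Dok3* line it had 0.241, 1.12 and 4.64 CPM against 0.327, 0.987 and 2.17 CPM, a log2 difference of 0.41 (SE 0.25, p = 0.115 in edgeR). All 9 genes tested had positive differences in the *Dok3* line, from 0.14 to 0.41 with a median of 0.18, against a median of 0 over all genes tested, and these genes vary together, as given with the correlations. In the *Dock2* line the 9 differences lay between -0.09 and 0.06 and in the *Gpsm3* line between -0.08 and 0.21. The SEs ran from 0.12 in the *Dock2* line to 0.37 in the *Nckap1l* line, where 15 of the 31 libraries held skin keratins. None of the enteroendocrine transcription factors, granule and processing genes, amine genes, other hormones, sensors or hormone receptors tested passed the threshold in any line.

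**Figure D2:**
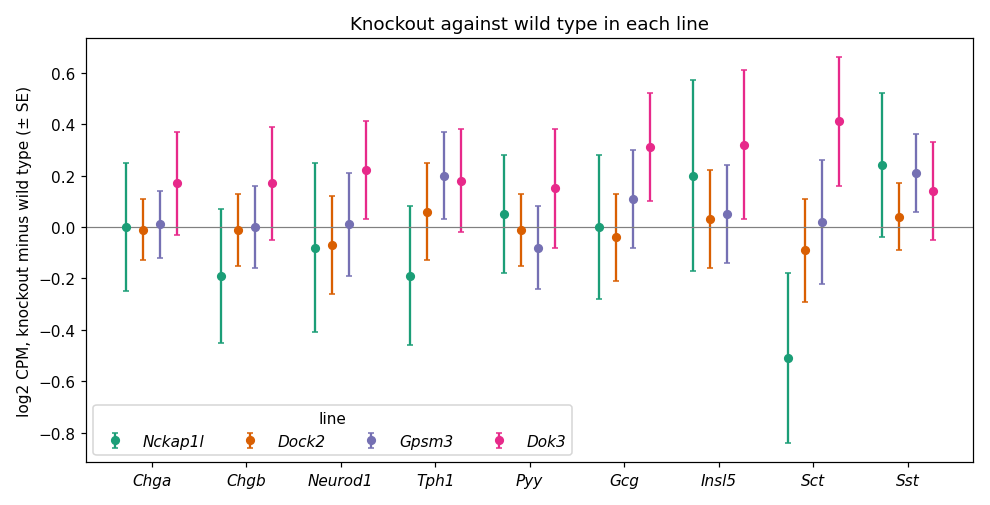
Difference in log2 CPM between knockout and wild-type mice (y axis; points are edgeR estimates, bars are ± SE) for the 9 genes kept by the filter (x axis) in each line (color). The *Dock2* estimates lay closest to 0, between -0.09 and 0.06, and all *Dok3* estimates were above 0.

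The degree of inflammation varied widely among the mice of every group, so each gene was set against it. The inflammation mean is the mean log2 CPM of 25 genes of neutrophils, cytokines and acute injury, such as *S100a8*, *Il1b* and *Lcn2*. It ran from -1.54 to 7.99 with a median of 0.13 and quartiles of -0.69 and 2.06, and 42 libraries lay above 2 and 11 above 5. A slope is the change in log2 CPM per unit of this mean, that is, per doubling of the geometric mean of the 25 genes, within line, genotype and sex.

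Over all 160 libraries *Cck*, *Sct*, *Gcg* and *Neurod1* rose with inflammation and *Insl5* fell, so 5 of the 10 genes passed the threshold. Most of the transcriptome moved with inflammation: 75.6% of 19849 genes passed, 39.3% rising and 36.3% falling, so the share among the 10 genes was below the background. The median slope of the 10 genes was 0.04, against 0.00 over all genes tested. *Cck* had a slope of 0.42 (SE 0.034, adjusted p = 1.01e-23 in edgeR), a fitted rise of 2.23-fold between the quartiles of the inflammation mean. The gene passed the filter on low counts in this fit of all lines but in no single line. The libraries where *Cck* was high enough to carry it past the filter were mostly inflamed ones. The filter therefore favored a rise, and the call for *Cck* is weaker than its p-value. Its levels were low in every group: in the *Gpsm3* line it had 0, 0.473 and 1.73 CPM in knockouts and 0, 0.249 and 1.55 CPM in wild types, and in the *Dok3* line 0, 0.194 and 1.68 CPM and 0, 0.307 and 1.28 CPM. *Sct* had a slope of 0.14 (SE 0.030, adjusted p = 1.17e-05) and *Gcg* of 0.10 (SE 0.025, adjusted p = 0.000155), with fitted rises of 1.31-fold and 1.22-fold between the quartiles. *Neurod1* had a slope of 0.08 (SE 0.027, adjusted p = 0.00389) and a fitted rise of 1.17-fold. The straight fit did not describe the extreme: the most inflamed library held 0.38 CPM of *Sct* and 10.4 CPM of *Gcg*, against 1.29 and 10.6 CPM in the least inflamed.

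*Insl5* had a slope of -0.09 (SE 0.034, adjusted p = 0.0132), a fitted fall to 0.841 of its level between the quartiles. *Chga*, *Chgb*, *Tph1*, *Pyy* and *Sst* did not pass, with slopes of -0.04, 0.04, 0.04, -0.03 and -0.02 and 95% intervals that all lay between -0.08 and 0.09. Without the 32 libraries with skin keratins, 7 of the 10 genes passed: *Cck* (0.46), *Sct* (0.17), *Gcg* (0.15), *Neurod1* (0.11), *Chgb* (0.07) and *Tph1* (0.05) rose and *Insl5* (-0.06) fell. Over all genes 73.6% passed in that fit, so the share among the 10 was near the background. With the mean of 15 epithelial genes as a further covariate, 8 of 10 passed and all 8 rose, including *Chga* (0.033) and *Pyy* (0.044), while *Insl5* had 0.025 (adjusted p = 0.342). Here 74.7% of all genes passed, again near the share among the 10. Of the 15 epithelial genes themselves, 9 fell with inflammation and 0 rose, and 12 of 12 skin genes and 10 of 10 striated muscle genes rose. The *Insl5* call was also lost in wild-type mice alone, where its slope was -0.016 (adjusted p = 0.809), without the 2 libraries farthest from the median (-0.073, adjusted p = 0.0577), in males only (-0.083, adjusted p = 0.0518) and with the run of sample numbers as a covariate (-0.066, adjusted p = 0.0555). It was lost as well with skin and striated muscle means as covariates (-0.005, adjusted p = 0.855) and against an interferon-gamma list in place of the inflammation list (-0.005, adjusted p = 0.964). Without the library with almost no *Hoxd13*, *Gcg* (0.089) and *Sct* (0.129) still rose.

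**Figure D3:**
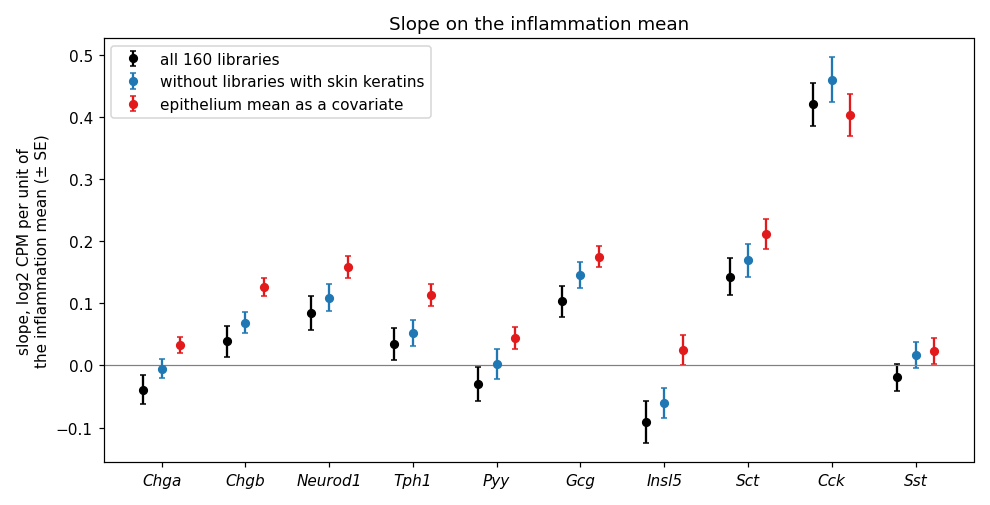
Slope of each gene on the inflammation mean (y axis, log2 CPM per unit, bars ± SE) in all 160 libraries (black), without the 32 libraries with skin keratins (blue) and with the epithelium mean as a covariate (red). *Cck* was highest under all 3, from 0.40 to 0.46, and *Insl5* went from -0.09 in all libraries to 0.025 with the covariate.

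The relation was not a straight line for most of the genes. A squared term was added to the fit after the plot of level against inflammation had been seen, and *Pyy*, *Cck*, *Sct*, *Chgb*, *Neurod1* and *Chga* bent downward, against 14.9% of all 19849 genes. *Pyy* had the smallest adjusted p, with a squared coefficient of -0.052 (SE 0.010, adjusted p = 2.96e-05 in edgeR), and its fitted level peaked at an inflammation mean of 1.72, which 47 libraries exceeded. *Chga* peaked at 1.26, *Chgb* at 2.59, *Neurod1* at 3.07 and *Sct* at 3.37. *Cck* bent most, at -0.065 (SE 0.014, adjusted p = 0.000217), but peaked only at 5.49, which 6 libraries exceeded. *Gcg*, *Insl5*, *Tph1* and *Sst* did not pass (squared coefficients of -0.026, -0.031, -0.012 and 0.019). Without the libraries with skin keratins 9 of 10 genes bent downward past the threshold, all but *Sst*, and without the 2 libraries farthest from the median only *Chgb*, *Pyy* and *Cck* did, with *Sct* at an adjusted p of 0.0534. Over all genes 16.1% and 10.3% bent downward in these 2 fits. Of 15 other enteroendocrine transcription factors, 11 bent downward too, and so did 8 of 15 epithelial, 10 of 18 interferon-gamma, 9 of 11 mast cell, 12 of 12 skin and 10 of 10 striated muscle genes, so the bend was not particular to enteroendocrine genes.

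**Figure D4:**
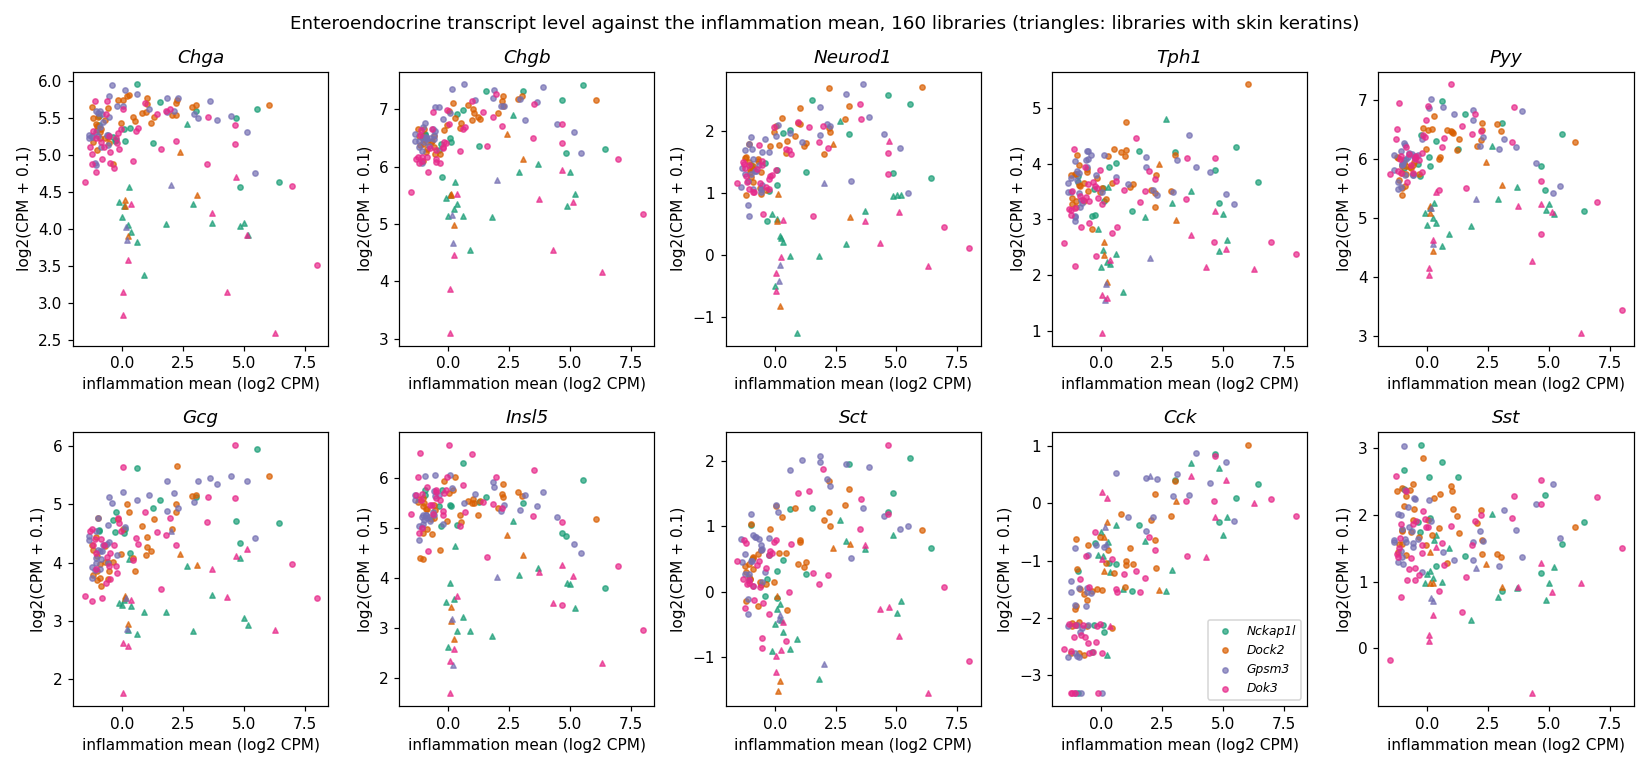
Level of each gene (y axis, log2 of CPM + 0.1) against the inflammation mean (x axis, log2 CPM) in 160 libraries, colored by line, with triangles for the 32 libraries with skin keratins. *Cck* climbed over most of the range, whereas *Chgb*, *Neurod1*, *Pyy* and *Sct* climbed up to means of about 1.72 to 3.37, where their fitted levels peaked, and were lower beyond.

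Within lines the slopes were less uniform. In the *Dock2* line *Gcg* (0.20), *Neurod1* (0.21), *Chgb* (0.15), *Tph1* (0.20), *Sct* (0.20) and *Pyy* (0.13) rose, where 55.3% of all genes passed. The most inflamed *Dock2* library, a wild type at a mean of 6.05 with 9863590 counts, held 43.0 CPM of *Tph1*. The next libraries, knockouts at 3.08 and 3.04, held 7.88 and 17.7 CPM. No fit of this line left that wild-type library out, so its weight in the *Tph1* slope was not tested. In the *Gpsm3* line *Gcg* (0.20), *Neurod1* (0.14) and *Sct* (0.20) rose, against 54.2% of all genes, and in the *Nckap1l* line *Sct* (0.17) did, against 47.4%. In the *Dok3* line *Chga* (-0.10), *Pyy* (-0.15) and *Insl5* (-0.20) fell, against 63% of all genes. *Cck* was too low to be tested in single lines. Without the libraries with skin keratins *Sct* in the *Nckap1l* line (0.16, adjusted p = 0.0712) and *Chga* (-0.044, adjusted p = 0.2) and *Pyy* (-0.092, adjusted p = 0.106) in the *Dok3* line lost their calls, and *Gcg* (0.105), *Sct* (0.14) and *Sst* (0.086) rose in the *Dok3* line. The *Dok3* knockout library with almost no *Hoxd13* lay at an inflammation mean of 4.66. It held 65.1 CPM of *Gcg*, 4.64 of *Sct*, 5.67 of *Sst*, 26.6 of *Pyy* and 10.9 of *Insl5*. No fit of the *Dok3* slopes, or of the slope difference among the 4 lines, left that library out, so its weight in them was not tested. The slopes of *Pyy* differed among the 4 lines by a test of the difference itself (adjusted p = 0.042 in edgeR), as did those of 7.56% of all genes, whereas the other 9 genes did not pass. *Pyy* levels ranged from 8.14 through 65.9 to 154 CPM in *Dok3* knockouts and from 16.2 through 54.8 to 124 CPM in *Dok3* wild types. In the *Dock2* line they ranged from 41.6 through 64.9 to 90.4 CPM in knockouts and from 21.6 through 63.1 to 106 CPM in wild types. Inflammation reached 7.99 in the *Dok3* and 6.05 in the *Dock2* line, with 8 and 1 libraries above 4, and without the libraries with skin keratins the *Pyy* difference had an adjusted p of 0.0531. No gene of the 10 passed a test of different slopes in knockout and wild-type mice (0.0151% of all genes did), and the nearest was *Sst*, with a difference of -0.14 (knockout minus wild type, SE 0.043, adjusted p = 0.16 in edgeR).

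To separate the makeup of the enteroendocrine transcripts from their amount, each gene was also taken relative to *Chga* in the same library and correlated with the inflammation mean, as residuals from line, genotype and sex. This measure was chosen after the slopes were known, and 9 relations were computed, with 100000 permutations each. Relative to *Chga*, *Cck* (Pearson's r = 0.68, Spearman's rho = 0.69), *Chgb* (0.65 and 0.68), *Gcg* (0.63 and 0.52), *Neurod1* (0.55 and 0.54) and *Sct* (0.54 and 0.55) were higher in more inflamed colons. The permutation p of each of these was 1e-05 for r, the smallest that the permutations can give, and 1e-05 after Benjamini-Hochberg adjustment. Without the 2 libraries farthest from the median of the inflammation mean, r was 0.66, 0.63, 0.63, 0.60 and 0.56, and without the libraries with skin keratins 0.79, 0.66, 0.63, 0.50 and 0.54. All 5 relations were positive in each of the 4 lines, with r between 0.36 and 0.78.

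*Tph1* was also higher relative to *Chga* (r = 0.37, rho = 0.27, adjusted permutation p = 1e-05 and 0.00109), although r was 0 within the *Gpsm3* line. *Insl5* was lower relative to *Chga* (r = -0.19, rho = -0.19, adjusted permutation p = 0.0176 and 0.0186), and r was -0.16 without the 2 farthest libraries, -0.36 within the *Dok3* and 0.19 within the *Dock2* line. For *Pyy* r was -0.03 and rho 0.18 (adjusted permutation p = 0.753 and 0.023), with r of 0.57 in the *Dock2* and -0.34 in the *Dok3* line. For *Sst* r was 0.11 and rho -0.02 (adjusted permutation p = 0.188 and 0.767). The L-cell peptides *Gcg* and *Insl5* therefore had relations of opposite sign with inflammation when measured against the same granule protein. Relative to *Chgb* in place of *Chga*, *Gcg* (r = 0.29), *Sct* (0.29) and *Cck* (0.57) kept their sign, as did *Insl5* (-0.52), although *Gcg* was -0.22 within the *Nckap1l* line. *Neurod1* had r = 0.19 (rho = 0.15, adjusted permutation p = 0.0212 and 0.0617) and *Tph1* -0.02 (rho = -0.14, adjusted permutation p = 0.789 and 0.0745) relative to *Chgb*. The *Tph1* relation therefore rested on the choice of *Chga*. The *Neurod1* relation was weaker against *Chgb* and passed by r but not by rho, with r from 0.07 to 0.33 in single lines. *Pyy* was -0.47 and *Sst* -0.16 (rho = -0.24, adjusted permutation p = 0.0563 and 0.00337).

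Across mice, 8 of the genes varied together. Over the 45 pairs, Pearson's r of the residuals had a median of 0.69, from -0.30 to 0.93, and 31 pairs were above 0.5. With the mean of the epithelial genes, 8 of the 10 genes also had r above 0.5, with a median of 0.68. The part of shared epithelial content in the pairs was not tested. *Chga* and *Chgb* gave the highest value (r = 0.93, rho = 0.89, permutation p = 1e-05), followed by *Pyy* and *Insl5* (r = 0.91, rho = 0.89, permutation p = 1e-05), and r in single lines ran from 0.91 to 0.95 and from 0.79 to 0.94. Without the 2 libraries farthest from the median they were 0.93 and 0.90, and without the libraries with skin keratins 0.85 and 0.85. *Sst* was looser, with r from 0.30 with *Sct* to 0.57 with *Chga* among these 8 genes, and without the libraries with skin keratins its r with them was only 0.01 to 0.35. *Cck* stood apart, with r from -0.30 with *Insl5* to 0.18 with *Sct* and -0.22 with *Sst*, but without those libraries it was 0.44 with *Sct*, 0.43 with *Gcg*, 0.36 with *Chgb*, 0.33 with *Neurod1* and -0.20 with *Insl5*. Without the libraries with skin keratins the median over the 45 pairs was 0.50.

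The same residuals were set against marker means of other cells. With the epithelium mean, r was 0.85 for *Chga*, 0.80 for *Insl5*, 0.78 for *Pyy*, 0.77 for *Chgb* and 0.63 for *Gcg*, and -0.31 for *Cck* (rho = -0.21, adjusted permutation p for rho = 0.0112, over 30 relations). Without the libraries with skin keratins the r with the epithelium mean was 0.63 for *Chga*, 0.37 for *Gcg*, -0.11 for *Cck* and -0.01 for *Sst*. With the mean of 16 enteric neuron genes, whose cells can also make *Chga*, *Chgb* and *Sst*, *Sst* had r = 0.43 (rho = 0.42, adjusted permutation p for r = 1e-05, r = 0.39 without the 2 farthest and 0.49 without the libraries with skin keratins, 0.29 to 0.47 in single lines), whereas the other 9 genes had r between -0.09 and 0.11. Summed neuron markers ran from 25.5 to 240 CPM and none of the 16 was at 0 in any library. Mast cells also make serotonin in mice, and *Tph1* had r = -0.38 with the mast cell mean (rho = -0.26, adjusted permutation p for r = 1e-05), but 0.16 without the libraries with skin keratins, and 0.69 with the epithelium mean. *Cck* had r = 0.57 with the mast cell mean (rho = 0.60, adjusted permutation p for r = 1e-05, 0.59 without the libraries with skin keratins and 0.49 to 0.66 in single lines). These residuals were not adjusted for inflammation, with which genes of the mast cell list such as *Hdc* (slope 1.11), *Mcpt4* (0.49) and *Mcpt2* (0.41) rose as *Cck* did. *Kit*, the highest gene of that list, fell (-0.14). The part of inflammation in this r was not tested. Of pancreas genes, which would accompany *Gcg* and *Sst* of islets, *Ins1* was at 0 in all 160 libraries and *Ins2* in 158. The list of 7 pancreas genes was not silent as a whole. Its summed level had a median of 167 CPM, with *Cela1* the highest gene, and reached 2710 CPM in a *Nckap1l* knockout library. *Ppy* was 1 of the 2 genes of this list kept by the filter over all lines. A part of pancreas RNA in the *Gcg* and *Sst* levels was not tested.

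**Figure D5:**
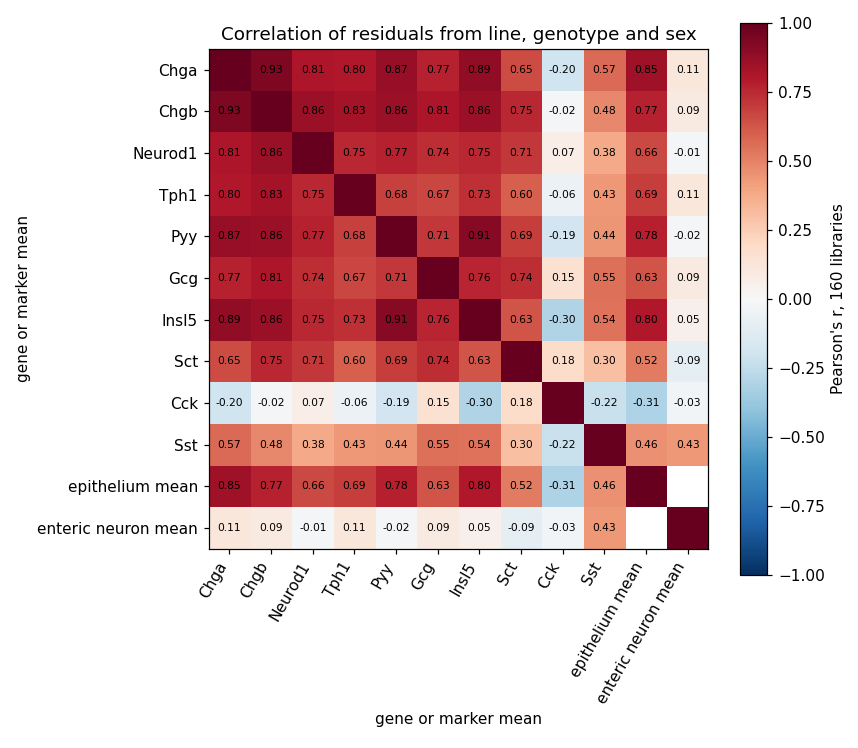
Pearson's r between genes, and between genes and the epithelium and enteric neuron means (both axes list the same items; color scale from -1 to 1; residuals of log2 CPM from line, genotype and sex, 160 libraries). The block from *Chga* to *Sct* is positive throughout, from 0.60 to 0.93, *Sst* runs from 0.30 to 0.57 with its members, and *Cck* lies between -0.30 and 0.18.

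The genes outside the 10 whose residuals were most like them, by mean r over the 10 genes and 160 libraries, were *Galnt12* and *Sidt1* (both 0.67), *Agr2* (0.66), *Rimbp2*, *Fam3b*, *C1galt1* and *Cdx2* (all 0.65), *Trim6* and *Tpd52* (both 0.64) and *Tm9sf2* (0.63). *Rimbp2*, a presynaptic scaffold protein, ranked first for *Chga* (r = 0.90), *Chgb* (0.88) and *Pyy* (0.84). The genes most like *Cck* were *Capg* (0.79), *Lrg1* (0.78) and *Il1r2* (0.78), of which *Capg* and *Il1r2* are made by myeloid cells and *Lrg1* is an acute-phase gene, and those most like *Sst* were *Dbh* (0.76), *Disp2* (0.67) and *Hand1* (0.67), of which *Dbh* and *Hand1* are genes of autonomic neurons. These 6 were named after their values were seen, and the part of other cells in the *Cck* and *Sst* levels was not tested. Without the libraries with skin keratins these means were between 0.43 and 0.52.

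The wider enteroendocrine program was read from lists of related genes. Among 15 other transcription factors, 4 rose and 4 fell with inflammation (median slope -0.04, against 0.00 over all genes, of which 39.3% rose and 36.3% fell). *Neurog3*, which commits crypt progenitors to the lineage and had a median of 0.766 CPM, rose with a slope of 0.20 (SE 0.034, adjusted p = 1.24e-07 in edgeR). *Isl1*, a LIM-homeodomain factor, rose (0.09), and *Mlxipl*, a glucose-responsive factor that enterocytes also use, fell (-0.25). Of 19 granule and processing genes, 2 rose and 12 fell, 14 called in all against the 75.6% of all genes, among them *Vgf*, a granule peptide precursor (0.20), *Cacna1a*, a calcium channel (-0.12), and *Resp18* (-0.11). Prohormone convertase 1 (*Pcsk1*), which cuts proglucagon into the glucagon-like peptides, did not pass (adjusted p = 0.884); it was named for this role after its value was seen.

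The lists of amine genes, hormones, sensors and receptors are read against the same background of 39.3% rising and 36.3% falling. Of 6 amine genes tested, *Gch1*, which starts synthesis of the cofactor of tryptophan hydroxylase, rose (0.14), and *Slc6a4*, the serotonin transporter of the epithelium (slope -0.40, SE 0.021, adjusted p = 9.18e-41 in edgeR), *Maoa*, which degrades serotonin (-0.23), and *Ddc*, which completes its synthesis (-0.21), fell, while the vesicular transporters *Slc18a1* (adjusted p = 0.112) and *Slc18a2* (adjusted p = 0.786) did not pass. *Slc6a4* fell in all 4 lines, with slopes from -0.47 to -0.34. Genes of mature colonocytes moved with it: 7 of 9 fell and 1 rose, among them *Aqp8* (-0.50), *Slc20a1* (-0.41), *Slc26a3* (-0.38) and *Car4* (-0.37), as did 6 of 6 genes of colon position, and their part in the falls of *Slc6a4*, *Maoa* and *Ddc* was not tested. Among 8 other hormones tested, 6 rose and 1 fell, led by *Nts*, encoding neurotensin (0.56, SE 0.045), *Gal*, encoding galanin (0.28), and *Adm*, encoding adrenomedullin (0.23), which nerves, vessels and stroma also make. *Nts* was near the floor, with a median of 0.243 CPM and 20 libraries at 0. In single lines it was kept by the filter only in the *Nckap1l* line. Of 12 sensors tested, 4 rose and 4 fell, including *Trpa1*, an irritant channel (0.26), *Cnga3* (0.23) and *Olfr78*, a short-chain fatty acid receptor (-0.19). Of 16 hormone receptors tested, 11 fell and 0 rose, led by *Htr4*, a serotonin receptor (-0.35), *Sstr1*, a somatostatin receptor (-0.32), and *Npy4r*, a receptor for pancreatic polypeptide (-0.17).

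Female and male mice were compared in the *Nckap1l* and *Dock2* lines, the only ones with both sexes. *Gcg* was lower in females by -0.50 on the log2 scale (SE 0.17, adjusted p = 0.0265 in edgeR), and the other 9 genes did not pass, where 19.8% of 20197 genes did. The difference was -0.18 in the *Dock2* line alone (adjusted p = 0.484), -0.85 in the *Nckap1l* line alone (adjusted p = 0.132) and -0.29 without the libraries with skin keratins (adjusted p = 0.155). In the same comparison 11 of 15 epithelial genes were lower in females. Most *Nckap1l* females, but only a minority of the *Nckap1l* males, were in the earliest run of sample numbers of that line. No fit of the sexes used the run as a covariate, so its part in the *Gcg* difference was not tested.

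The *Dok3* line was set against the *Dock2* and *Gpsm3* lines in wild-type mice labelled male, at equal inflammation, a comparison in which strain, line, dose and sample numbers cannot be told apart. *Sct* (-0.73, SE 0.23, adjusted p = 0.0142 in edgeR), *Chgb* (-0.52, SE 0.19, adjusted p = 0.0395), *Gcg* (-0.51, SE 0.17, adjusted p = 0.0193) and *Chga* (-0.43, SE 0.16, adjusted p = 0.043) were lower in the *Dok3* line. That is 4 of 10 genes, against 23.5% of 18442 genes in either direction and 11% lower, and *Neurod1* had -0.50 (adjusted p = 0.0508). The *Sct* levels in *Dok3* wild types ran from 0.327 through 0.987 to 2.17 CPM, against 0.368 through 1.66 to 3.91 CPM in *Gpsm3* wild types. Without the libraries with skin keratins the same 4 genes passed, with differences from -0.72 to -0.32, and *Cck* did as well (-0.78, adjusted p = 0.034). Without the 2 *Dok3* wild types whose sex markers went against the label the same 4 passed (-0.67 to -0.45) and *Neurod1* did too (-0.53, adjusted p = 0.0462). With the epithelium mean as a covariate none of the 4 did, and *Cck* alone was lower (-0.86, adjusted p = 0.015).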

How the data were processed

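RNA-seq of distal colon was measured in 160 mice of 4 lines. The authors aligned reads from a stranded, ribosomal RNA-depleted library with STAR to mm10 and counted them per gene with featureCounts (Subread), and the deposited values are whole-number counts, not normalized; versions and the strand setting of the counting are not given in the sources used here. Gene names, coordinates and exon lengths came from GENCODE on the same build (37693 of 39179 identifiers named), and promoter sequences from RefSeq (GRCm38.p6).

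Groups were taken from the labels. Counts were scaled by TMM, genes of low count were removed with filterByExpr, and each comparison was fitted over all genes kept in edgeR 4.0.16 (R 4.3.3; glmQLFit and glmQLFTest) with Benjamini-Hochberg adjustment at 0.05. Knockout was compared with wild type within each line with sex as a covariate where both sexes were present; slopes were fitted on the inflammation mean (mean log2 CPM of 25 genes, prior count 2) with line-by-genotype group and sex. Limma-voom (limma 3.58.1), the approach of the study, and DESeq2 1.42.0 were alternatives, as were other scalings, filters, covariates and left-out libraries; those concerning skin keratins, *Hoxd13*, sex markers and curvature were added after the data had been seen. Correlations used 100000 permutations (scipy 1.17.1, numpy 2.4.6, Python 3.11.15), and plots matplotlib 3.10.9. The fits were tested on simulated data. Libraries with over 500 CPM of summed skin genes were set apart as holding skin keratins.

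The text names the 10 genes, the 3 largest slopes past the threshold in each related list, the 10 most alike genes, the leading marker of each marker list where used, and the 4 targeted genes. The genes and lists were chosen with earlier results of these data known. Depth ran from 4344988 to 19993833 counts. Because the strand setting is not known, reads of a gene and of an overlapping antisense gene may not be separated.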

Additional observations from a re-analysis of the deposited data

Results flagged for a closer look

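The slope of *Pyy* on the inflammation mean differed among the 4 lines (adjusted p = 0.042 in edgeR over 19849 genes, and 0.0124 in limma-voom). It was 0.13 (SE 0.043) in the *Dock2*, 0.05 (SE 0.043) in the *Gpsm3*, -0.02 (SE 0.052) in the *Nckap1l* and -0.15 (SE 0.051) in the *Dok3* line. The inflammation mean reached 3.08 in *Dock2* knockouts and 6.05 in their wild types, and 7.99 and 6.97 in the *Dok3* groups, while the fitted *Pyy* level bent downward beyond 1.72. Without the 32 libraries with skin keratins the adjusted p was 0.0531. The part of the range of inflammation in the difference was not tested. No fit of the difference left out the *Dok3* knockout library with almost no *Hoxd13*, so its weight was not tested either.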

How the results depend on the processing

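Over all genes, knockout calls moved with the tool and filter. With DESeq2, 21 genes were called in the *Nckap1l*, 76 in the *Dock2*, 4 in the *Gpsm3* and 3 in the *Dok3* line. Keeping all genes with at least 1 count, 27, 31, 32 and 15 were called. With at least 10 counts in every sample 1 was called in the *Dock2* and 0 in the *Gpsm3* line, with limma-voom 0 in the *Dock2* line, in males only 1 in the *Dock2* line, with the inflammation mean as a covariate 1 in the *Nckap1l* line, and without the libraries with skin keratins 79 in the *Dock2* and 2 in the *Gpsm3* line. In all of these 0 of the 10 genes was called. In the *Nckap1l* line 2357 genes had an unadjusted p under 0.05 in edgeR without the libraries with skin keratins, against 807 with them.

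For slopes over all lines, 8 of the 10 genes were called with the epithelium mean as a covariate, where *Chga* (0.033), *Pyy* (0.044) and *Insl5* (0.025) reversed, and 2 with at least 10 counts in every sample, which removed *Neurod1*, *Sct*, *Cck* and *Sst*. Over all genes tested 74.7% and 80.3% were called in these 2 fits. In the *Nckap1l* line 0 were called without the libraries with skin keratins. Slope differences between genotypes were called for 1 gene by limma-voom. Female against male, 2 of the 10 genes were called by limma-voom and 0 without the libraries with skin keratins, 0 in the *Dock2* and 0 in the *Nckap1l* line alone, and all genes called numbered 2576 without the inflammation mean, 1547 without those libraries, 1780 in the *Dock2* and 156 in the *Nckap1l* line. In the *Dok3* comparison 1 of the 10 was called with the epithelium mean, against 20.3% of all genes. The downward bend was called for 3 of the 10 without the 2 farthest libraries, against 10.3% of all genes. Apart from the smaller samples and gene sets, the cause was not tested.

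No paired analysis was possible because knockout and wild-type samples of a line share no sample number. Depth limited *Cck*, at 3 counts or fewer in 54 libraries. The labels do not tell treated from untreated mice.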
